A study of Homo sapiens with 77 samples.

Results

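The interferon regulatory factors (IRFs) are a family of transcription factors, and 8 of their genes, IRF1, IRF2, IRF3, IRF4, IRF5, IRF7, IRF8 and IRF9, were followed through RNA-seq of B-cell lymphoma cell lines given drugs against 2 chromatin regulators. The members were picked by gene name, as listed family members and not by a cut on measured values, although earlier results of these data were known when the family was picked. They are 8 of 35813 genes in a table of counts from cells given the menin inhibitor MI-503 and 8 of 21455 genes in a table from cells given an EZH2 inhibitor, another menin inhibitor or both. In the first table KARPAS422, DB, Farage and SUDHL5 cells were kept for 3 days in the solvent DMSO or in MI-503 at 800 nM. In the second, KARPAS422 cells for 48 h and SuDHL10 cells for 24 h received DMSO, the EZH2 inhibitor EPZ-6438 (tazemetostat) at 1000 nM, the menin inhibitor VTP50469 at 330 nM, or both drugs. All are established diffuse large B-cell lymphoma lines. The study treats KARPAS422, DB and SuDHL10 as lines with activating EZH2 mutations and Farage as a line with wild-type EZH2. Each group holds 2 libraries. The labels name no separate cultures for the libraries of a group. A p-value here therefore rests on the spread of 2 libraries, which may be technical, and a line stands for itself only.

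IRF proteins share a DNA-binding domain that reads the interferon-stimulated response element (ISRE) of many antiviral genes. IRF3, IRF5 and IRF7 are activated by kinases downstream of nucleic acid sensors and switch on interferon genes, IRF9 is the DNA-binding part of the complex ISGF3 that answers type I interferon, IRF1 is an activator induced by interferon gamma and IRF2 its competitor on DNA. In B cells IRF8 acts in the germinal centre together with PU.1, and IRF4 drives the exit from the germinal centre towards plasma cells. EZH2 writes the repressive mark H3K27me3, and menin holds the activating MLL methyltransferases on their targets.

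The total per library lay between 13034958 and 54883332 counts in the MI-503 table and between 8956156 and 31573027 in the combination table. The summed level of 7 B cell markers lay between 3235 and 4588 CPM (counts scaled to the size of the library) in all libraries of the MI-503 table and between 3090 and 5861 CPM in those of the combination table, so all lines carried them. KARPAS422 also carried T and NK cell markers, at 159 to 186 CPM in sum in the MI-503 table and 224 to 299.6 CPM in the other, against at most 27.97 CPM in the other lines, and their part in the levels of KARPAS422 was not tested. Of the 7 such markers, 0 to 2 were at 0 in a KARPAS422 library. A library of KARPAS422 given both drugs, replicate 2, stood apart. Of 4913 genes under 0.5 CPM in each of the other 7 KARPAS422 libraries of its table, 1316 exceeded 1 CPM there. The genes were picked as low in the other libraries after the data were seen, and no other library was put through this rule. They summed to 3754 CPM in that library. The other replicate 2 libraries held 594 (DMSO), 440.2 (VTP50469) and 465.9 CPM (EPZ-6438), and those of replicate 1 held 149.2 to 299.4 CPM. In a library of Farage given MI-503, replicate 1, epithelial markers summed to 59.5 CPM, against at most 6.27 CPM in the other libraries of that table. Values without these libraries are given where a result rests on them.

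Levels without drug are given as CPM after TMM normalisation, a scaling that assumes most genes to be equal between libraries. The ± values are standard errors (SE) of log2 differences unless named as SD. A gene passed where edgeR's quasi-likelihood test with Benjamini-Hochberg adjustment over all genes tested gave an adjusted p under 0.1. Most genes tested differed between these lines, although that scaling assumes most to be equal. A member that passed was therefore in the company of most genes tested. KARPAS422 differed from DB in 8 of 8 members (81.2% of all genes tested), from Farage in 8 of 8 (80.4% of all genes) and from SUDHL5 in 7 of 8 (81.8% of all genes). DB differed from Farage in 7 of 8 members (82.1% of all genes) and from SUDHL5 in 8 of 8 (81.4% of all genes), and Farage differed from SUDHL5 in 8 of 8 (78.3% of all genes). These shares are near the background, so the levels below are given for their size and order in each line.

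**Figure D1:**
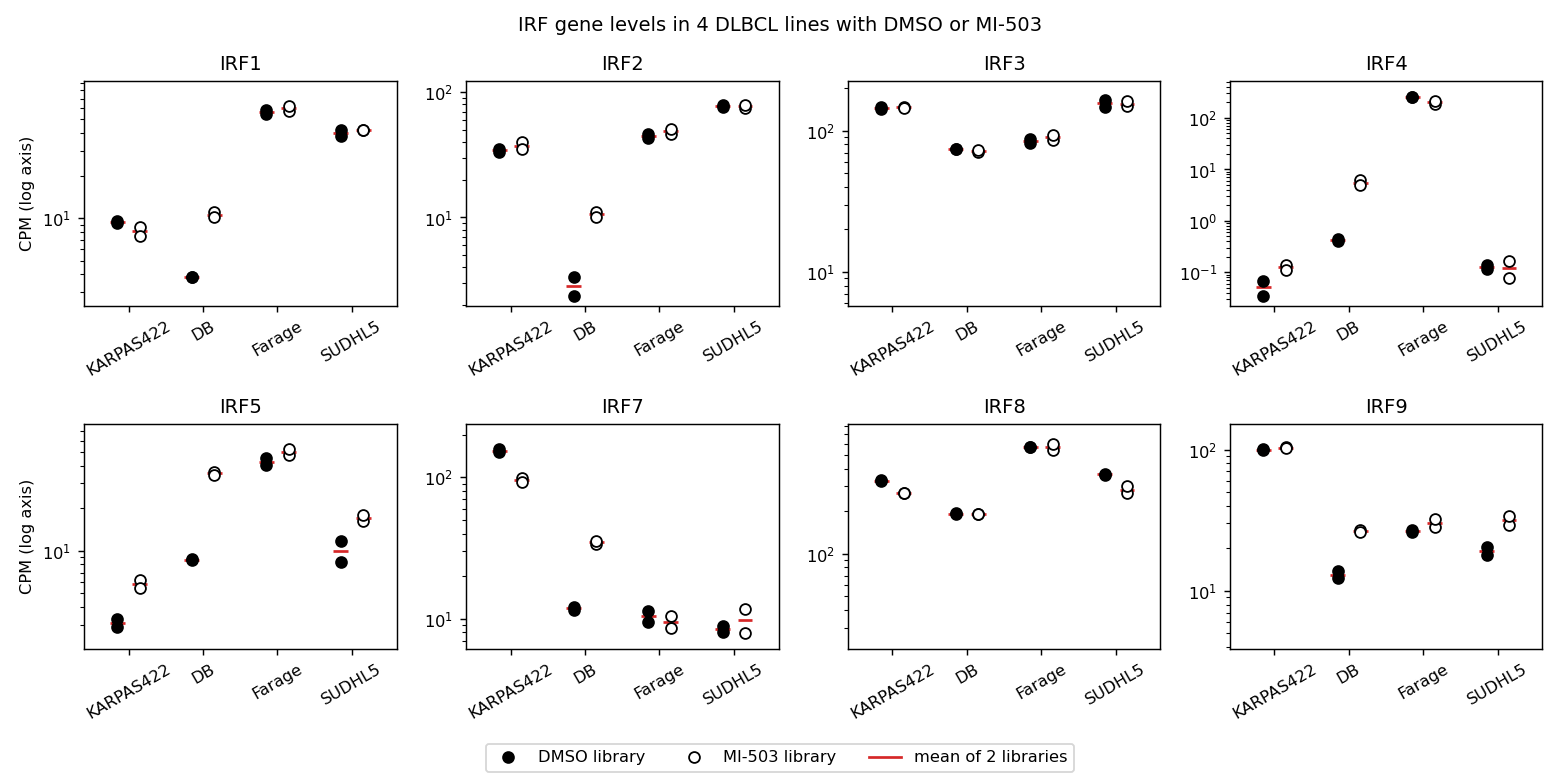
Level of each IRF gene in the 16 libraries of the MI-503 table, in TMM-normalised CPM on a log axis, 1 panel per gene. Filled points are DMSO, open points MI-503 and bars the mean of the 2 libraries of a group. IRF7 stands highest in KARPAS422, IRF4 in Farage, and the DB libraries separate by drug in every gene but IRF8.

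IRF7, the factor that amplifies type I interferon, marked KARPAS422. It lies on chromosome 11 (hg38 chr11:612553-615983, minus strand). Its DMSO libraries held 158 and 151 CPM in KARPAS422, 12.2 and 11.5 CPM in DB, 11.4 and 9.55 CPM in Farage, and 8.95 and 8.08 CPM in SUDHL5. The KARPAS422 libraries stood far above all others, and the lower DB library lay next to the higher Farage library. The log2 difference was 3.73 ± 0.0698 between KARPAS422 and DB (adjusted p = 2.79e-15), 3.82 ± 0.0720 to Farage (adjusted p = 2.21e-15) and 4.14 ± 0.0658 to SUDHL5 (adjusted p = 4.14e-16). DB and Farage did not differ beyond the spread (0.08 ± 0.109, adjusted p = 0.49), the pair of neighbours in that order that failed the test. With scaling by library totals alone that pair passed (0.23, adjusted p = 0.0647). The value of DB and Farage against SUDHL5 was 0.41 and 0.32 (adjusted p = 0.0018 and 0.0114), and without the first Farage library the second of these failed (0.19, adjusted p = 0.223).

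IRF9 had the same highest line. It lies at hg38 chr14:24161234-24168043 on the plus strand. In DMSO its libraries held 100.1 and 99.1 CPM in KARPAS422, 13.8 and 12.3 CPM in DB, 27.1 and 25.9 CPM in Farage, and 20.4 and 17.8 CPM in SUDHL5. No 2 lines overlapped, with the order KARPAS422, Farage, SUDHL5, DB, and each neighbouring pair passed. KARPAS422 exceeded Farage, the next line, by 1.85 ± 0.0628 on the log2 scale (adjusted p = 1.82e-12) and DB, the lowest, by 2.96 ± 0.0708 (adjusted p = 4.05e-14). Of the exon bases of IRF9, 27.2% are shared with other annotated genes, 23.9% with one on the same strand, so part of its counts could belong to them.

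IRF3, the sensor-activated factor that is present before infection, varied least. It lies at hg38 chr19:49659569-49665875 on the minus strand, and 19.3% of its exon bases overlap BCL2L12 on the opposite strand. The DMSO libraries held 143 and 148 CPM in KARPAS422, 74.5 and 73.8 CPM in DB, 87.1 and 82.2 CPM in Farage, and 165 and 148 CPM in SUDHL5. DB was lowest and Farage next, and the KARPAS422 and SUDHL5 libraries lay side by side. DB stood below SUDHL5 by a log2 difference of -1.13 ± 0.0517 (adjusted p = 5.52e-11). KARPAS422 differed from SUDHL5 by -0.13 ± 0.0446 (adjusted p = 0.0182). This last call did not hold with scaling by library totals alone, where the sign turned (0.03, adjusted p = 0.519), without the filter on low counts (adjusted p = 0.125), or without the first KARPAS422 (adjusted p = 0.122) or the first SUDHL5 library (adjusted p = 0.403).

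IRF5, which answers Toll-like receptor signals, lies at hg38 chr7:128937457-128950038 on the plus strand. Its DMSO libraries held 3.28 and 2.87 CPM in KARPAS422, 8.68 and 8.65 CPM in DB, 45.2 and 40.1 CPM in Farage, and 11.7 and 8.36 CPM in SUDHL5. KARPAS422, which led for IRF7 and IRF9, was lowest here, and Farage stood above the other lines. The log2 difference of KARPAS422 minus Farage was -3.85 ± 0.131 (adjusted p = 1.87e-12). DB and SUDHL5 overlapped, and their difference of -0.32 ± 0.149 (adjusted p = 0.0647) failed in 6 of 11 alternatives. These were library totals alone (adjusted p = 0.22), DESeq2 (0.12), thinning to the smallest library (0.256), and the fits without the first SUDHL5 library (-0.01, adjusted p = 0.993) or without the first or the second DB library (adjusted p = 0.162 and 0.177).

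IRF1, the activator induced by interferon gamma, and IRF2, its competitor, were both lowest in DB. IRF1 lies at hg38 chr5:132440440-132508719 on the minus strand and shares 22.9% of its exon bases with genes on the opposite strand, among them IRF1-AS1. Without drug its libraries held 9.29 and 9.58 CPM in KARPAS422, 3.83 and 3.84 CPM in DB, 58.5 and 54.6 CPM in Farage, and 42.1 and 38.3 CPM in SUDHL5. The lines did not overlap. DB stood below Farage by -3.98 ± 0.103 on the log2 scale (adjusted p = 1.04e-13), and Farage above SUDHL5 by 0.54 ± 0.0677 (adjusted p = 5.34e-06).

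IRF2 lies at hg38 chr4:184385702-184474558 on the minus strand. The pairs of DMSO libraries held 35.3 and 33.6 CPM in KARPAS422, 3.35 and 2.34 CPM in DB, 43.2 and 46.1 CPM in Farage, and 79.4 and 76.3 CPM in SUDHL5. The DB values rested on 49 and 36 counts. No lines overlapped, and DB stood below SUDHL5 by -4.82 ± 0.106 (adjusted p = 1.97e-14), the widest gap of IRF2 between any 2 of these lines.

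IRF8, the germinal centre member, was high in every line, and IRF4, the plasma cell member, in Farage. IRF8 lies at hg38 chr16:85899116-85922606 on the plus strand. In DMSO the gene reached 326 and 330 CPM in KARPAS422, 193 and 190 CPM in DB, 567 and 568 CPM in Farage, and 361 and 369 CPM in SUDHL5. The lines kept apart within narrow pairs. Farage exceeded DB, with -1.66 ± 0.0342 for DB minus Farage (adjusted p = 9.38e-15), and the closest neighbours, KARPAS422 and SUDHL5, differed by -0.16 ± 0.0311 (adjusted p = 0.000265), a call lost with scaling by library totals alone (-0.01, adjusted p = 0.87).

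IRF4 lies at hg38 chr6:391739-411443 on the plus strand. Its DMSO libraries held 254 and 257 CPM in Farage, 0.410 and 0.455 CPM in DB (6 and 7 counts), 0.119 and 0.139 CPM in SUDHL5 (6 and 2 counts) and 0.0349 and 0.0697 CPM in KARPAS422 (2 and 4 counts). Farage stood above SUDHL5 by 11.03 ± 0.105 (adjusted p = 1.15e-17) and above DB, with -9.28 ± 0.102 for DB minus Farage (adjusted p = 2.65e-17). The other lines sit near the limit of counting. KARPAS422 and SUDHL5 did not differ beyond the spread (-1.18 ± 0.559, adjusted p = 0.132), while DB exceeded SUDHL5 by 1.75 ± 0.475 (adjusted p = 0.00735), a call that failed without the first SUDHL5 library (1.55, adjusted p = 0.132).

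Divided by the summed exon length of each gene, which allows levels of different genes to be set side by side, IRF8 led in 3 of 4 lines. In Farage IRF8 reached 72.3 CPM per kb, IRF4 42.8 and IRF3 22.3, and the other members lay between 4.01 and 6.65. In SUDHL5 IRF8 stood at 46.5 and IRF3 at 41.3 CPM per kb, and in DB at 24.4 and 19.5. KARPAS422 was the line in which another member came first, with IRF7 at 59.0, IRF8 at 41.8 and IRF3 at 38.3 CPM per kb. IRF9 followed there at 15.4 and IRF2 at 5.12 CPM per kb, and IRF1 (0.769), IRF5 (0.434) and IRF4 (0.00877) stayed below 1. With the longest transcript as length the order was kept in KARPAS422 and SUDHL5, whereas IRF1 moved above IRF2 in DB and above IRF2 and IRF5 in Farage. The values per kb themselves depended on the length used. With the longest transcript 31 of them moved by at least the SD of their libraries and 1 did not. IRF1 in KARPAS422 then stood at 1.83 CPM per kb.

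In the combination table, DMSO-treated SuDHL10 and KARPAS422 differed in 4 of the 5 members that could be tested (62.4% of all genes). SuDHL10 was kept for 24 h and KARPAS422 for 48 h, so line and time cannot be told apart here. IRF2 was higher in SuDHL10, at 86.4 and 94.1 CPM against 28.5 and 30.2 CPM (1.65 ± 0.149, adjusted p = 2.84e-06), and so was IRF5, at 14.9 and 13.6 against 4.81 and 5.44 CPM (1.503 ± 0.202, adjusted p = 7.51e-05). IRF8 was lower in SuDHL10, at 298 and 276 CPM against 669 and 681 CPM (-1.20 ± 0.128, adjusted p = 1.21e-05), and IRF3 did not pass (-0.24 ± 0.152, adjusted p = 0.204). The libraries of both lines kept apart for IRF2, IRF5 and IRF8 and overlapped in none of these genes, and for IRF3 the 124 and 108 CPM of SuDHL10 lay below the 129 and 152 CPM of KARPAS422. IRF7 passed as lower in SuDHL10 (-4.33 ± 0.863, adjusted p = 0.00134) on 1 and 1 counts against 24 and 11.

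The combination table limits what can be said of 4 members. IRF1 and IRF9 are listed at 0 in all 16 of its libraries, although KARPAS422 gave 532 and 550 counts of IRF1 in the DMSO libraries of the MI-503 table. IRF7 reached 1.86 and 0.604 CPM in DMSO-treated KARPAS422 there, against 158 and 151 CPM for the same line in the MI-503 table. These tables were counted separately, and genes outside the family were at 0 in the combination table as well. Of 5770 genes with at least 2000 counts in both DMSO libraries of KARPAS422 in the MI-503 table, 252 (4.37%) are at 0 in all libraries of the combination table. IRF9, with 5731 and 5689 counts in those DMSO libraries, is among them. IRF1 lay under that minimum and IRF7 was not at 0, so this share covers neither. IRF4 held 0 to 6 counts in each of its libraries but 1. The drug changes of IRF1, IRF4 and IRF9 in this table were therefore not tested. IRF7, with 5 to 128 counts a library in KARPAS422, was tested there, and with at most 9 in SuDHL10 it was not.

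MI-503 asks what loss of menin binding does to the family in each line. In DB, 6 of 8 members rose and none fell (69.2% of all genes passed in DB). In KARPAS422, 4 of the 7 members tested passed, 1 upwards and 3 downwards (51.8% of all genes), in SUDHL5 3 of 7, 2 upwards and 1 downwards (55% of all genes), and in Farage 2 of 8, 1 in each direction (27% of all genes). None of these shares lies far from that of all genes, so the finding is which members moved and how far. IRF5 was the member that passed, upwards, in all 4 lines, and IRF3 passed in none. The call of IRF5 in Farage held in 7 of 11 alternatives. In RNA from whole cultures fewer cells that express a gene and less RNA per cell cannot be told apart.

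In DB the largest change was that of IRF4, from 0.410 and 0.455 CPM in DMSO (6 and 7 counts) to 6.11 and 5.01 CPM in MI-503 (334 and 244 counts). The groups did not overlap. The log2 change was 3.68 ± 0.274, a 12.8-fold rise (adjusted p = 1.9e-07). Both MI-503 libraries of DB were sequenced more deeply than its DMSO libraries, and with all libraries thinned to the smallest the change was 3.75 (adjusted p = 1.76e-07). The level stayed far below that of Farage, at 2.39% and 1.96% of it. For 83 other genes of at least 50 CPM in Farage and under 0.5 CPM in DB without drug, the MI-503 libraries of DB stood at a median of 0.184% and 0.196% of the Farage level, and 80 and 81 of the 83 lay below IRF4 by this measure. In the DMSO libraries of DB their medians were 0.0946% and 0.0938%, and IRF4 stood at 0.161% and 0.178%. There 63 and 59 of the 83 already lay below IRF4. IRF4 was set beside these genes after its rise had been seen, so its rank with MI-503 is a description and no test.

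IRF5 rose in DB from 8.68 and 8.65 CPM to 36.3 and 34.2 CPM, a log2 change of 2.03 ± 0.0812 or 4.08-fold (adjusted p = 8.58e-10). IRF2 went from 3.35 and 2.34 CPM to 11.2 and 10.03 CPM, or 3.75-fold (1.91 ± 0.159, adjusted p = 5.28e-07). IRF7 went from 12.2 and 11.5 CPM to 34.0 and 35.3 CPM, or 2.94-fold (1.55 ± 0.0744, adjusted p = 3.87e-09). In each of these genes both treated libraries lay above both DMSO libraries. IRF1 went from 3.83 and 3.84 CPM to 11.01 and 10.13 CPM, or 2.77-fold (1.47 ± 0.128, adjusted p = 7.55e-07), and IRF9 from 13.8 and 12.3 CPM to 27.1 and 26.3 CPM, or 2.05-fold (1.04 ± 0.0785, adjusted p = 2.14e-07). IRF8, at 193 and 190 CPM before and 191 and 192 CPM after, had a change of 0.00 ± 0.0297, and IRF3 one of -0.05 ± 0.0404, and neither passed. The 6 members that rose in DB were those of lower CPM without drug, and the pair of highest CPM did not pass. Markers of other cells moved with the drug in DB as well. Epithelial markers, 7 in number, summed to 1.78 and 1.69 CPM in DMSO, with 4 at 0 in each library, and to 5.14 and 4.79 CPM in MI-503, with 0 or 1 at 0. Of 3 tested 2 rose. The 8 myeloid markers went from 0.615 and 1.04 CPM to 1.87 and 1.603 CPM (1 of 1 tested rose, 2 to 5 at 0 in a library) and the 7 T and NK cell markers from 4.51 and 4.88 CPM to 7.10 and 6.29 CPM (1 of 2 tested rose, 2 to 4 at 0). Their part in these changes was not tested.

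**Figure D2:**
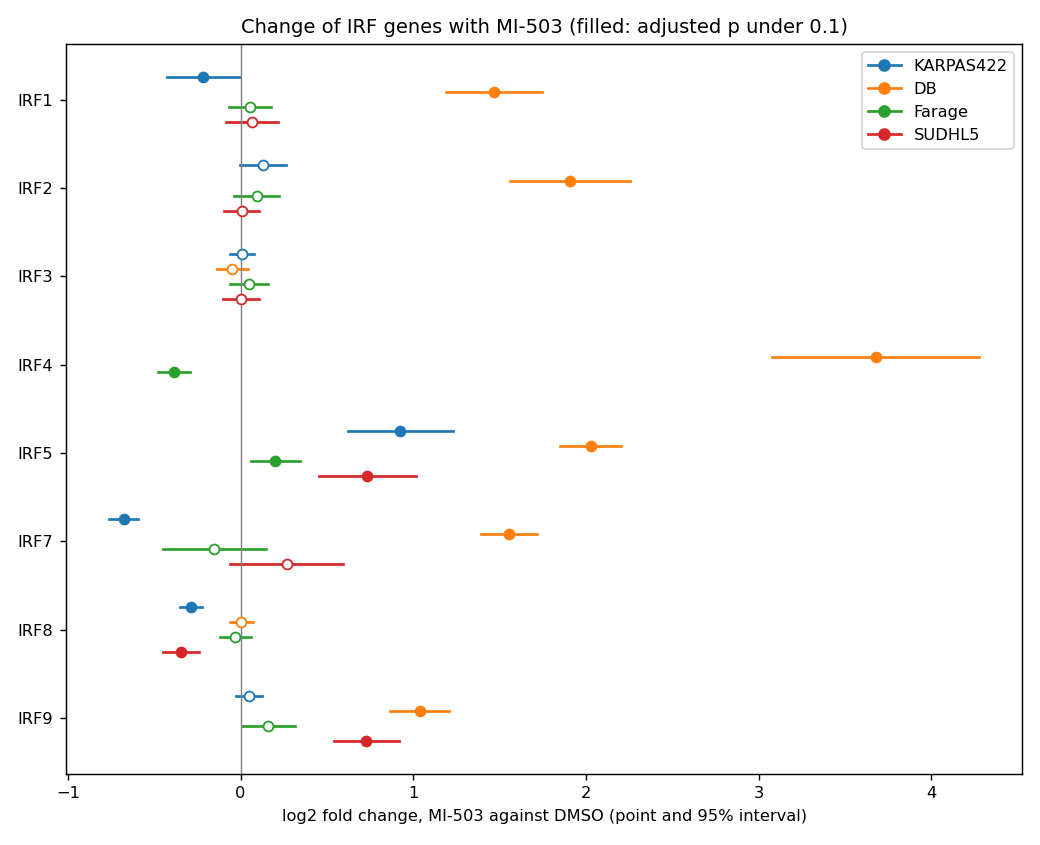
Log2 change of each IRF gene with MI-503 against DMSO in KARPAS422, DB, Farage and SUDHL5, from 2 libraries per group, with 95% intervals. Filled points had an adjusted p under 0.1. IRF5 lies to the side of a rise in every line, and IRF7 moves in opposite directions in KARPAS422 and DB.

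In KARPAS422 the line's leading member fell. IRF7 went from 158 and 151 CPM in DMSO to 99.4 and 93.3 CPM in MI-503, and IRF8 from 326 and 330 CPM to 269.95 and 269.79 CPM. Both groups kept apart in both genes. The log2 changes were -0.68 ± 0.0374 for IRF7 (adjusted p = 2.65e-07) and -0.28 ± 0.0286 for IRF8 (adjusted p = 1.69e-05). IRF5 rose from 3.28 and 2.87 CPM to 6.20 and 5.41 CPM (0.92 ± 0.138, adjusted p = 0.00027). IRF1, with 9.29 and 9.58 CPM before and 8.66 and 7.44 CPM after, fell by 0.22 on the log2 scale at the edge of the threshold (adjusted p = 0.0912), and that call was lost with DESeq2 (adjusted p = 0.264), with scaling by library totals alone, without the filter on low counts, after thinning and without any of 3 of the 4 libraries. IRF2 lay at the threshold without passing (0.13 ± 0.0597, adjusted p = 0.1), and it passed in 5 of 11 alternatives, with an adjusted p of 0.0421 with library totals alone, 0.0909 after thinning, 0.0315 with a replicate block, 0.0469 without the first DMSO library and 0.0572 without the second MI-503 library. IRF9 (0.05 ± 0.0337) did not pass, and IRF4 had 2 to 8 counts a library and was not tested. The summed level of 8 myeloid markers moved with the drug in this line, from 52.2 and 52.2 CPM to 106 and 108.5 CPM with 0 to 4 of them at 0 in a library, and its part in these changes was not tested.

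In SUDHL5 IRF9 rose from 20.4 and 17.8 CPM to 29.3 and 33.6 CPM (0.73 ± 0.0837, adjusted p = 0.000104). IRF5 rose from 11.7 and 8.36 CPM to 16.2 and 18.0 CPM (0.73 ± 0.125, adjusted p = 0.00108). IRF8 fell from 361 and 369 CPM to 269 and 300.2 CPM, by 0.34 ± 0.0463 on the log2 scale (adjusted p = 0.000278). For these genes DMSO and MI-503 libraries did not overlap, whereas those of IRF7, with 8.95 and 8.08 CPM before and 7.97 and 11.7 CPM after, did (0.27 ± 0.146, adjusted p = 0.163).

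Farage, the line with the high IRF4, lost part of it. IRF4 went from 254 and 257 CPM to 188 and 211 CPM, below both DMSO libraries, a change of -0.39 ± 0.0422 (adjusted p = 0.00025), and of -0.35 (adjusted p = 8.92e-06) without the MI-503 library that carried epithelial markers. IRF5 went from 45.2 and 40.1 CPM to 47.7 and 52.2 CPM (0.20 ± 0.0638, adjusted p = 0.0531). This small rise failed with DESeq2 (adjusted p = 0.126) and with all 16 libraries in 1 fit of edgeR's quasi-likelihood test (0.24, adjusted p = 0.145). It also failed without the second DMSO library (0.12) and without the second MI-503 library (0.16). It passed without the marker-carrying library (0.22, adjusted p = 0.0413), where IRF9 passed as well (0.20, adjusted p = 0.068). IRF8, the most abundant member, held 567 and 568 CPM before and 539 and 599 CPM after (-0.03 ± 0.0403).

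The change with MI-503 differed among the 4 lines in 7 of 8 members by the line-by-treatment term of a fit over all 16 libraries (57.2% of all genes), and IRF3 was the exception (adjusted p = 0.57). For IRF7 the change in KARPAS422 lay below that in DB, with a difference of -2.23 log2 units (95% interval -2.52 to -1.93). For IRF4 the change in DB exceeded that in Farage by 4.03 (3.47 to 4.58), for IRF2 by 1.77 (1.39 to 2.15) and for IRF9 by 0.83 (0.56 to 1.09). DB also exceeded SUDHL5 for IRF9, by 0.32 (0.06 to 0.58), although the gene rose in both. The change of IRF5 in KARPAS422 and SUDHL5 differed by 0.22 with an interval of -0.16 to 0.61, so their order was not resolved. For IRF8 KARPAS422 and SUDHL5 likewise differed by 0.07 (-0.09 to 0.23), and both lay below DB, by -0.28 (-0.44 to -0.12) for KARPAS422 minus DB and by 0.36 (0.19 to 0.52) for DB minus SUDHL5.

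The EZH2 inhibitor EPZ-6438 was given alone and with the menin inhibitor VTP50469 to ask what each adds, and the 3 treated groups of a line share their DMSO libraries. In KARPAS422 IRF5 and IRF2 stepped up with the drugs, and the highest levels of both were those with both drugs. EPZ-6438 alone gave 3 of 5 tested members passing (18.3% of all genes), 2 upwards and 1 downwards, VTP50469 alone 0 of 5 (3.38% of all genes), and both drugs 3 of 5, all upwards (48.7% of all genes). For VTP50469 3 members had an unadjusted p under 0.05 in edgeR's quasi-likelihood test, and DESeq2 passed 1, IRF8 (adjusted p = 0.0995). Libraries of the same replicate number deviated together in KARPAS422 of this table. With that number as a block in the fit, no call of a member in this line changed.

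**Figure D3:**
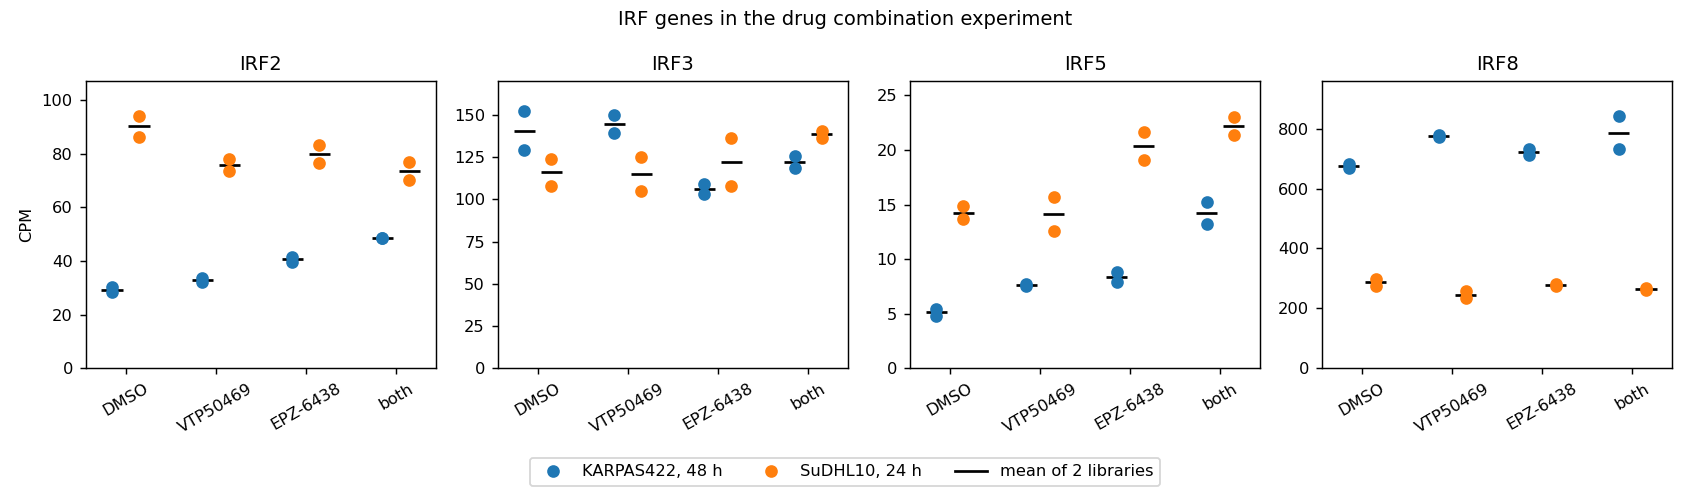
Levels of IRF2, IRF3, IRF5 and IRF8 in the combination table, in TMM-normalised CPM on linear axes from 0, for KARPAS422 after 48 h and SuDHL10 after 24 h. Points are libraries and bars the mean of 2. IRF5 steps up with EPZ-6438 and both drugs in KARPAS422, and the treated libraries of IRF2 lie above DMSO in KARPAS422 and below it in SuDHL10.

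IRF5 in KARPAS422 stood at 4.81 and 5.44 CPM in DMSO, 7.72 and 7.49 CPM with VTP50469, 8.85 and 7.87 CPM with EPZ-6438 and 13.2 and 15.2 CPM with both. The DMSO libraries lay below all others and those with both drugs above all others. Against DMSO the log2 change was 0.69 ± 0.181 with EPZ-6438 (adjusted p = 0.0578), 0.64 ± 0.180 with VTP50469 (adjusted p = 0.182) and 1.503 ± 0.182 with both (adjusted p = 0.00134). Both drugs exceeded EPZ-6438 alone by 0.81 ± 0.179 (adjusted p = 0.0359). The call for EPZ-6438 alone was lost with DESeq2 (adjusted p = 0.128), without the filter on low counts (adjusted p = 0.141) and after thinning (adjusted p = 0.138). It was also lost without any 1 of its libraries or of the DMSO libraries. The call against EPZ-6438 was lost with only the compared groups in the fit (adjusted p = 0.149) and without the first or the second EPZ-6438 library. For both drugs against DMSO it held without the library that stood apart (1.42, adjusted p = 0.000224).

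IRF2 stood at 28.5 and 30.2 CPM in DMSO, 32.2 and 33.7 CPM with VTP50469, 39.8 and 41.4 CPM with EPZ-6438 and 48.4 and 48.7 CPM with both. No groups overlapped, and their order was the one given. The log2 change was 0.45 ± 0.0817 with EPZ-6438 (adjusted p = 0.0234), 0.24 ± 0.0808 with VTP50469 (adjusted p = 0.267) and 0.76 ± 0.0807 with both (adjusted p = 0.000879), and without the library that stood apart the last was 0.78 (adjusted p = 0.000821). Both drugs exceeded EPZ-6438 alone by 0.31 ± 0.0802 (adjusted p = 0.0544). That call failed without the filter on low counts (adjusted p = 0.121), with only the compared groups in the fit (adjusted p = 0.133) and without the first or the second EPZ-6438 library. Without the first library of both drugs the difference was 0.08 and did not pass. In all, 2 of 5 members passed for both drugs against EPZ-6438 (20.9% of all genes, or 2766), and with the replicate number as a block 2 members and 6028 genes.

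IRF3 went the other way with EPZ-6438, from 129 and 152 CPM to 103 and 109 CPM (-0.42 ± 0.103, adjusted p = 0.0493). VTP50469 left it at 150 and 139 CPM, and both drugs gave 119 and 126 CPM, a change of -0.17 ± 0.102 that did not pass and whose sign turned with scaling by library totals alone (0.07). The calls of IRF3 and IRF2 with EPZ-6438 were lost without the second DMSO library and without the first or the second EPZ-6438 library, and that of IRF3 with library totals alone (-0.32, adjusted p = 0.13). IRF8 went from 669 and 681 CPM to 777 and 773 with VTP50469, 711 and 732 with EPZ-6438 and 842 and 733 with both. The call for both drugs (0.26 ± 0.105, adjusted p = 0.0924) hung on single libraries. It failed without the first (adjusted p = 0.2) or the second DMSO library (adjusted p = 0.36), and it was 0.37 (adjusted p = 0.0118) without the library that stood apart and -0.07 (adjusted p = 0.429) without its partner.

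IRF7, which per kb of exon had the highest level of the members in KARPAS422 in the MI-503 table, could not be followed. Its libraries held 24 and 11 counts in DMSO, 128 and 8 with VTP50469, 39 and 5 with EPZ-6438, and 31 and 44 with both. Replicates differed by more than the drugs did, and no change passed (0.71 ± 1.43 with both drugs, adjusted p = 0.699). IRF4 reached 39 counts, or 2.15 CPM, in the library of both drugs that stood apart and 6 counts in its partner.

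**Figure D4:**
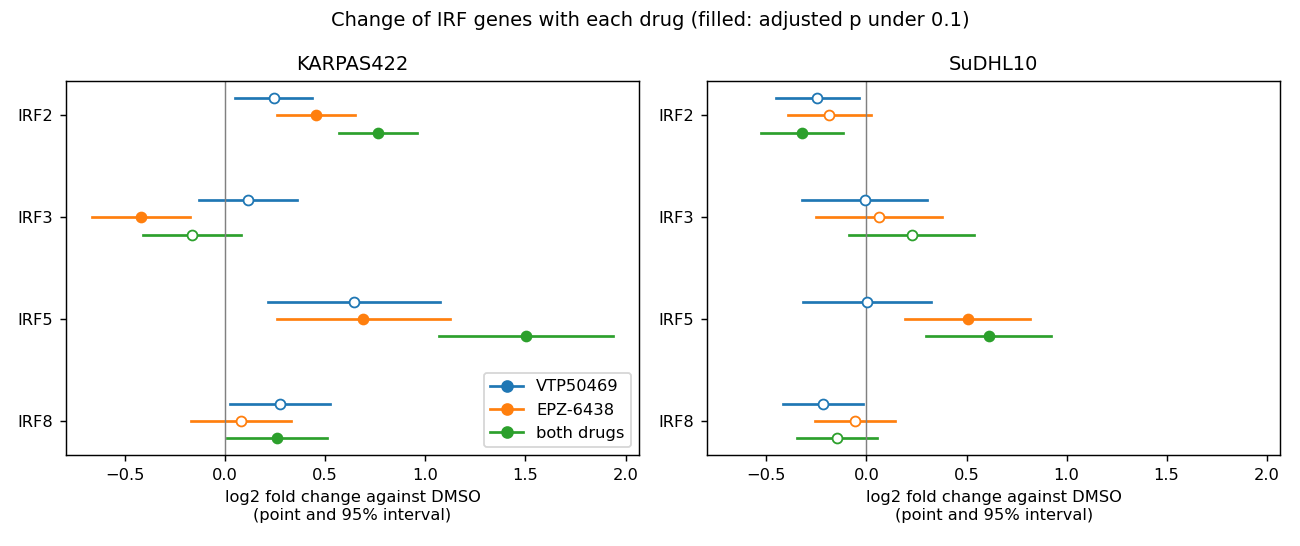
Log2 change against DMSO of the IRF genes tested in KARPAS422 (48 h) and SuDHL10 (24 h) with EPZ-6438, VTP50469 or both drugs, from 2 libraries per group, with 95% intervals. Filled points had an adjusted p under 0.1. IRF5 with both drugs is filled in both lines, and IRF2 with both drugs is filled on opposite sides of 0.

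In SuDHL10 EPZ-6438 passed 1 of 4 tested members (17.5% of all genes), VTP50469 0 of 4 (0% of all genes) and both drugs 2 of 4 (21.6% of all genes). For VTP50469 edgeR's quasi-likelihood test gave 724 genes and 2 members, IRF2 and IRF8, with an unadjusted p under 0.05, and DESeq2 passed 14 genes and 0 members. IRF5 stood at 14.9 and 13.6 CPM in DMSO, 15.6 and 12.6 CPM with VTP50469, 21.7 and 19.1 CPM with EPZ-6438 and 23.0 and 21.4 CPM with both. The libraries with EPZ-6438, alone or combined, lay above all libraries without it. The change was 0.51 ± 0.138 with EPZ-6438 (adjusted p = 0.0464) and 0.61 ± 0.138 with both (adjusted p = 0.0196), and each call failed without the second DMSO library (adjusted p = 0.173 and 0.12) and without the first treated library (adjusted p = 0.117 and 0.166). The summed level of 8 myeloid markers was 16.6 and 17.02 CPM in DMSO, 17.7 and 23.4 CPM with EPZ-6438 and 22.5 and 30.06 CPM with both drugs, with 3 to 5 of them at 0 in a library. With both drugs 2 of 2 tested rose (median 2.02). The 7 T and NK cell markers went from 22.4 and 28.0 CPM in DMSO to 9.04 and 11.99 CPM with both, with 1 to 3 at 0, and 1 of 2 tested fell. The part of either list in the changes of SuDHL10 was not tested.

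IRF2 stood at 86.4 and 94.1 CPM in DMSO, 78.1 and 73.6 CPM with VTP50469, 76.6 and 83.3 CPM with EPZ-6438 and 70.3 and 76.8 CPM with both. All treated libraries lay below the DMSO libraries. Only the fall with both drugs passed, by 0.32 ± 0.0914 on the log2 scale (adjusted p = 0.0474), and it failed with scaling by library totals alone (-0.25, adjusted p = 0.152), after thinning and without any of 3 of the 4 libraries of these groups. IRF8, at 298 and 276 CPM in DMSO and 266 and 261 CPM with both (-0.15 ± 0.0892), and IRF3, at 124 and 108 and then 136 and 140 CPM (0.23 ± 0.139), did not pass. Both drugs against EPZ-6438 alone passed 0 of 4 members in edgeR's quasi-likelihood test (4.47% of all genes), with 0 at an unadjusted p under 0.05 and 0 by DESeq2.

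Whether both drugs gave more than the sum of their single changes was tested on the log2 scale. In KARPAS422 0 of 5 members passed (0% of all genes) in edgeR's quasi-likelihood test, which gave 769 genes and 0 members an unadjusted p under 0.05, while DESeq2 passed 177 genes and 0 members. The excess was 0.17 ± 0.253 for IRF5 and 0.07 ± 0.114 for IRF2. In SuDHL10 0 of 4 passed (0.0526% of all genes), with 0 members at an unadjusted p under 0.05 and 0 by DESeq2, and the excess was 0.10 ± 0.196 for IRF5 and 0.11 ± 0.129 for IRF2. Each ± is a single SE, and a departure must lie well beyond it to pass. Smaller departures could not be seen with 2 libraries a group. Doses, times and tables differ between MI-503 and VTP50469, so these menin inhibitors are set side by side only. In KARPAS422 the log2 change of IRF5 was 0.92 with MI-503 and 0.64 with VTP50469, and that of IRF8 was -0.28 and 0.27.

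The genes that ISGF3 is known to switch on, 24 in number, were highest in KARPAS422, as were IRF7 and IRF9. In DMSO their summed level was 5769 and 5407 CPM in KARPAS422, 264 and 257 CPM in DB, 267 and 275 CPM in Farage, and 199 and 199 CPM in SUDHL5. KARPAS422 stood above every other line, with 23 of the 23 genes tested higher than in DB, in Farage and in SUDHL5, and median log2 differences of 8.40, 5.64 and 5.88 against 0.05, 0.04 and 0.01 for all genes. MX1, an antiviral GTPase, was higher in KARPAS422 than in DB by 8.88 ± 0.0682 (adjusted p = 1.2e-18). By summed level the order of the other lines was that of neither IRF7 nor IRF9, with DB and Farage nearly level. By the median differences it was Farage, SUDHL5, DB, which is the order of IRF9. In DB minus SUDHL5, where IRF7 was higher and IRF9 lower in DB, 5 targets were higher and 11 lower (median -0.71).

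**Figure D5:**
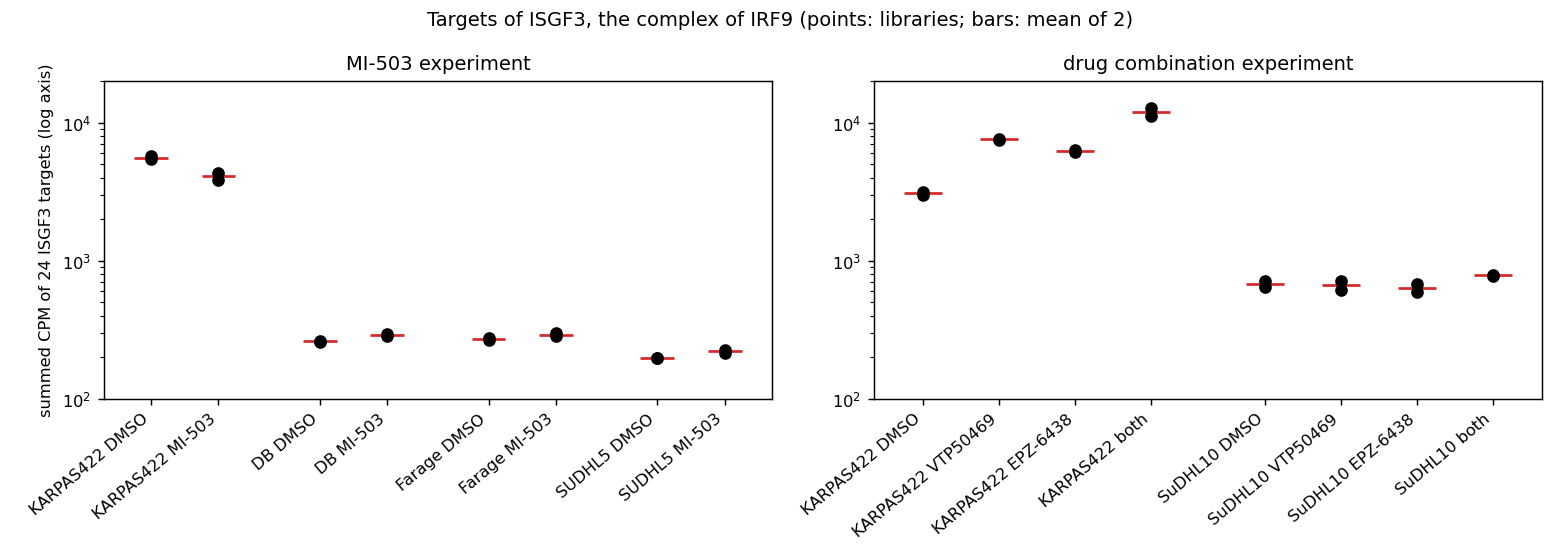
Summed level of 24 genes known as targets of ISGF3 in each library of the MI-503 table and of the combination table, in CPM on a log axis, by line and treatment. KARPAS422 lies above the other lines in both tables, falls with MI-503 and climbs to 12750 and 11100 CPM with both drugs.

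With MI-503 the sum in KARPAS422 went to 4292 and 3859 CPM, where 20 of 23 targets fell and 0 rose (median -0.57 against 0.01 for all genes, of which 51.8% passed), among them the apoptosis-linked XAF1 (-0.95 ± 0.0426, adjusted p = 6.34e-08), CMPK2 (-0.81 ± 0.0378, adjusted p = 7.89e-08) and MX1 (-0.72 ± 0.0360, adjusted p = 1.21e-07). In DB, where IRF9 and IRF7 rose, 7 of 15 targets rose and 1 fell (median 0.33 against 0.02 for all genes), a smaller share than the 69.2% of all genes that passed, and the sum stayed low at 286 and 292 CPM. In SUDHL5 5 of 19 rose and 2 fell (55% of all genes passed), and in Farage 1 of 16 rose (27% of all genes passed), or 2 of 18 without the library with epithelial markers. In the combination table KARPAS422 held 2996 and 3149 CPM of these targets in DMSO, 7669 and 7489 with VTP50469, 6173 and 6288 with EPZ-6438 and 12750 and 11100 with both. The groups did not overlap. Of 19 targets tested, 16 rose with VTP50469 (median 1.28, with 3.38% of all genes passing), 18 with EPZ-6438 (median 1.16, 18.3% of all genes) and 19 with both (median 2.27 against 0.10 for all genes, 48.7% of which passed), and none fell. The counts for the single drugs hung on 1 library each. Without the first VTP50469 library 0 targets passed (median 1.23), and without the second EPZ-6438 library 0 (median 1.17), while without other libraries 10 to 12 rose with VTP50469 and 14 to 16 with EPZ-6438. With both drugs 19 rose without any 1 library of these groups, the library that stood apart included. With the replicate number as a block 18, 17 and 19 rose. OASL, an antiviral member of the oligoadenylate synthetase family, rose by 3.57 ± 0.104 with both drugs (adjusted p = 4.66e-05). SuDHL10 stayed between 597 and 786 CPM in all libraries, and 6 of 15 targets rose and 1 fell with both drugs (21.6% of all genes passed), or 2 to 7 rose and 0 fell without 1 library.

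Of the signal relay that feeds IRF9, JAK1, JAK2, TYK2 and STAT2 were counted. With MI-503 they rose in 4 of 4 genes in DB (median 0.61 against 0.02 for all genes), in 2 of 4 in Farage, in 3 of 4 in SUDHL5 with 1 falling, and in KARPAS422 in 2, with 1 falling. The shares of all genes that passed were 69.2%, 27%, 55% and 51.8% in that order. STAT2, the partner of IRF9, changed by 0.71 ± 0.0474 in DB (adjusted p = 7.07e-08) and by -0.14 ± 0.0337 in KARPAS422 (adjusted p = 0.00609). In KARPAS422 cells given the drug combinations 3 of 4 rose with EPZ-6438 and 1 with VTP50469, or 0 without the second EPZ-6438 or the first VTP50469 library, and 3 with both, where STAT2 gained 2.28 ± 0.114 (adjusted p = 0.000108). In SuDHL10 2 of 4 rose with EPZ-6438 and 1 with both, and JAK2 was the latter (1.48 ± 0.295, adjusted p = 0.0113). Of all genes, 18.3%, 3.38% and 48.7% passed in KARPAS422 with EPZ-6438, VTP50469 and both. In SuDHL10 17.5% passed with EPZ-6438 and 21.6% with both.

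Upstream of IRF3, IRF5 and IRF7, a list of 20 sensors, adaptors and kinases changed in mixed directions with MI-503. In KARPAS422 3 of 18 rose and 11 fell (51.8% of all genes passed). Among those that fell were MYD88, the adaptor of Toll-like receptors (-0.57 ± 0.0354, adjusted p = 5.82e-07), and TLR9, a receptor for DNA (-0.84 ± 0.0620, adjusted p = 1.95e-06). The other lines split, with 6 of 17 up and 6 down in DB, in Farage 1 and 4, and in SUDHL5 2 and 3, a share below that of all genes in SUDHL5 (55%) and near it in DB (69.2%) and Farage (27%). In KARPAS422 5 of 17 rose and 3 fell with EPZ-6438 (18.3% of all genes passed) and 5 rose and 0 fell with VTP50469 (3.38% of all genes). Without any 1 library of the compared groups fewer rose with either drug. None passed without the second EPZ-6438 or the first VTP50469 library. With both drugs 7 rose and 4 fell (48.7% of all genes). IFIH1, which codes for the RNA sensor MDA5, gained 4.54 ± 0.236 there (adjusted p = 0.000122) and TLR7, a receptor for RNA, 3.76 ± 0.267 (adjusted p = 0.000311). MYD88 rose there by 1.08 ± 0.0958 (adjusted p = 0.000551). In SuDHL10 0 of 17 passed with EPZ-6438 (17.5% of all genes passed) or VTP50469 (0% of all genes) and 2 fell with both (21.6% of all genes).

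Of 9 interferon genes, at most 1 passed the filter in any line. IFNB1, the gene of interferon beta, was that gene in KARPAS422, and it passed with both drugs (3.09 ± 1.01, adjusted p = 0.0496), a call lost without either DMSO library or without the first library of both drugs. The 6 receptor genes rose in 5 and fell in 1 in KARPAS422 with MI-503, rose in 4 in DB and 2 in Farage, and rose in 5 and fell in 1 in SUDHL5. Of all genes, 51.8%, 69.2%, 27% and 55% passed in these lines in that order. IFNAR2, a chain of the type I receptor, rose in all 4, by 0.49 ± 0.0414 in KARPAS422 (adjusted p = 4.65e-06) and 0.33 ± 0.0414 in DB (adjusted p = 1.92e-05). Of the receptor genes tested in the combination table, 2 of 5 rose with both drugs in KARPAS422 (48.7% of all genes passed) and 1 of 5 with EPZ-6438 in SuDHL10 (17.5% of all genes passed).

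Promoters were read for the members that RefSeq's table of GRCh38.p14 held, which were 5 of 8, with 9 windows of 300 bases in all. Motifs were searched on both strands. The core of the ISRE, GAAANNGAAA, was in none of these windows and in 3.57% of 35116 promoters. The site for STAT dimers, TTCNNNGAA (GAS), was in a window of IRF1 and of IRF9 and in 7.66% of all promoters. These stretches are shown since they belong to the members that interferon signalling is known to induce, with the match in capitals, IRF1 at chr5:132490859-132490927 (minus strand, match at -124 to -116) and IRF9 at chr14:24161172-24161240 (plus strand, match at -63 to -55). Positions are counted from the start that RefSeq gives, base 132490773 of chromosome 5 for IRF1 and base 24161265 of chromosome 14 for IRF9. The gene spans given above, from GENCODE, hold transcripts that start elsewhere.
IRF1: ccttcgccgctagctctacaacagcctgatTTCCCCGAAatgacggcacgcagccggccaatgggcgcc
IRF9: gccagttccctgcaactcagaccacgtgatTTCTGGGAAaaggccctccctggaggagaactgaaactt
Both genes rose in DB with MI-503, and their changes in KARPAS422 were -0.22 and 0.05. A match is a run of letters and does not show binding.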

How the data were processed

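Deposited values were raw counts per gene, which the authors made by mapping RNA-seq reads with HISAT2 (2.1.0) to hg38 and counting with featureCounts (1.6.1), per the labels and methods. CASAVA (1.7) is named with no role, and Picard (2.23.1) served the study's CUT&Tag data, not used here. Libraries were made after removal of ribosomal RNA. Strand, annotation and multi-mapping reads: not given in the sources used here. Counts of overlapping genes cannot be told apart. Doses and times come from the study's figure legends. Both tables were fitted apart.

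Genes were kept by filterByExpr, scaled by TMM and tested in edgeR (4.0.16, R 4.3.3) by its quasi-likelihood test with Benjamini-Hochberg adjustment over all genes tested, at 0.1, after a test on simulated data. Each line was fitted alone for MI-503, the 8 libraries of a line together for the combinations, and the 8 DMSO libraries of the first table for levels. Genes most like a member were ranked by correlation of log2 CPM (prior count 2) over 16 conditions. Named genes were all members, the 3 most like each, and up to 4 genes with the smallest p of each list. DESeq2 (1.42.0), other scalings, no filter, thinning, each left-out library and a replicate block were alternatives. Replicates were compared by a chi-square statistic per gene, from 1.955 to 6.777 in the MI-503 table and from 1.824 to 47.45 in the combination table, so none was taken as 1 library deposited again. Deviations of libraries with the same replicate number correlated between 0.6193 and 0.8499 in KARPAS422 of the combination table, so the number may mark a shared batch there, which the labels do not state. Gene positions and lengths are from GENCODE v44. Members and lists were chosen with earlier results of these data known. Some genes left out of the lists are not reported here.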

Additional observations from a re-analysis of the deposited data

Results flagged for a closer look

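The change with MI-503 differed among KARPAS422, DB, Farage and SUDHL5 by the line-by-treatment term of edgeR's quasi-likelihood test with Benjamini-Hochberg adjustment for IRF1 (adjusted p = 6.99e-07), IRF2 (6.18e-07), IRF4 (1.22e-08), IRF5 (8e-07), IRF7 (7.46e-09), IRF8 (0.000598) and IRF9 (3.15e-06). Of all genes tested, 57.2% differed as well.

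In the combination table both libraries of a treatment lay on one side of the DMSO libraries in KARPAS422 after 48 h and on the other in SuDHL10 after 24 h for the genes and treatments given here. This difference was not tested, since the times differ. For IRF2 the log2 change in KARPAS422 was 0.45 with EPZ-6438, 0.24 with VTP50469 and 0.76 with both, against -0.19, -0.24 and -0.32 in SuDHL10. For IRF8 it was 0.27 with VTP50469 and 0.26 with both, against -0.22 and -0.15. For IRF3 with both drugs it was -0.17 against 0.23. Of these changes, IRF2 with both drugs passed in both lines and IRF2 with EPZ-6438 and IRF8 with both drugs in KARPAS422, by edgeR's quasi-likelihood test. The others passed in neither line.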

How the results depend on the processing

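Over the alternatives tried, 1505 values of members in a comparison kept their side of the threshold, 59 lost the call and 32 gained it. A further 2 that had passed turned in sign: IRF3 in KARPAS422 minus SUDHL5 with library totals alone (0.0299) and IRF8 in KARPAS422 with both drugs without the first library of both drugs (-0.0721, with up to 0.370 when other libraries were left out). Among the 1505, values that passed in neither fit also turned in sign. IRF7 in KARPAS422 with VTP50469 went from 1.36 to -1.52 without the first VTP50469 library. The causes were not tested. With 2 libraries a group the spread is poorly known, and low counts limit IRF4 and IRF7.

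Counts of members or genes that passed moved by over 1.5 times as follows. In Farage with MI-503 the members went from 2 to 1 with DESeq2 and with all 16 libraries in 1 fit. In KARPAS422 with VTP50469 the members went from 0 to 1 with library totals or DESeq2 and 2 with only the compared groups, and the genes from 447 to 766 with totals, 278 with no filter, 738 with DESeq2 and 736 with only the compared groups. With both drugs they went from 6441 to 3585 genes with only the compared groups. For both drugs against EPZ-6438 there the members went from 2 to 4 with totals or thinning, 1 with no filter and 0 with only the compared groups, and the genes from 2766 to 1056 with the latter. For the excess over the sum DESeq2 gave 177 genes in KARPAS422 against 0. In SuDHL10 with EPZ-6438 the members went from 1 to 2 with no filter and 0 with only the compared groups, and the genes from 1999 to 1254 with thinning and 944 with only the compared groups. With both drugs the members went from 2 to 1 with totals or thinning and the genes from 2469 to 1585 with thinning. With VTP50469 no filter gave 125 genes and DESeq2 14, against 0. Against EPZ-6438 the genes went from 510 to 1402 with no filter, 257 with thinning and 295 with only the compared groups, and for the excess over the sum from 6 to 13 with totals, 292 with no filter and 38 with DESeq2.

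Replicate numbers were shared between groups, but deviations of libraries of the same number correlated between -0.1887 and 0.01417 in the MI-503 table, and between 0.05476 and 0.3094 in SuDHL10 of the other table, so they were not taken to pair these. In KARPAS422 of that table (0.6193 to 0.8499) the blocked fit changed no call of a member. In SuDHL10 it added IRF2 with EPZ-6438 (adjusted p = 0.0665) and IRF3 with both drugs (0.0391). A replicate block gave 6028 genes for both drugs against EPZ-6438 in KARPAS422, and in SuDHL10 4490 genes and 2 members with EPZ-6438, 463 with VTP50469, 5306 with both, 3790 for both against EPZ-6438 and 2544 for the excess over the sum. A crossed replicate block in SUDHL5, chosen after seeing the data, passed 7803 genes and 4 members.

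Leaving out 1 library at a time gave ranges of genes that passed of 1039 to 3767 in Farage with MI-503, in KARPAS422 0 to 1647 with EPZ-6438, 0 to 132 with VTP50469, 4459 to 11135 with both, 0 to 9701 for both against EPZ-6438 and 0 to 6369 for the excess over the sum, and in SuDHL10 1125 to 2525, 0 to 3, 860 to 2608, 13 to 3275 and 0 to 1528. Members ranged from 1 to 3 in Farage, in KARPAS422 from 0 to 2 with EPZ-6438, 0 to 3 for both against EPZ-6438 and 0 to 1 for the excess, and in SuDHL10 from 0 to 1 with EPZ-6438, 0 to 2 with both and 0 to 1 for both against EPZ-6438. Library totals alone shifted the median log2 change of all genes by 0.234 with both drugs in KARPAS422 and by 0.185 in KARPAS422 minus Farage, and the share of passing genes that were higher from 48.3% to 64.7% in the former and from 69.2% to 89.4% in SuDHL10 with EPZ-6438.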

Other observations

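The partner factors and B cell regulators around IRF4 and IRF8 that passed in DB with MI-503 made up shares near or above the 69.2% of all genes that passed there, and are given for their direction. BATF, the AP-1 factor that binds DNA with IRF4, rose by 2.95 ± 0.257 (adjusted p = 7.62e-07 in edgeR's quasi-likelihood test), and PRDM1, the plasma cell regulator BLIMP1, by 2.59 ± 0.381 (adjusted p = 7.63e-05). BCL6, the germinal centre repressor, fell by 1.69 ± 0.0327 on the log2 scale (adjusted p = 6.02e-12), and MYBL1 and PAX5 fell by 0.90 and 0.53. Of 8 partner factors tested 3 rose and 3 fell in DB, of 6 germinal centre regulators 1 rose and 5 fell, and of 5 plasma cell regulators 3 rose and 1 fell. In Farage, where IRF4 fell, PRDM1 changed by -0.53 ± 0.155 (adjusted p = 0.0378) and BATF by -0.27 ± 0.0838 (adjusted p = 0.0453). There 1 partner factor rose and 3 fell, and 1 plasma cell regulator rose and 1 fell (27% of all genes passed). In KARPAS422 XBP1, a factor of the secretory programme, fell by 1.31 ± 0.0493 (adjusted p = 2.2e-08), and 1 plasma cell regulator rose and 1 fell (51.8% of all genes passed). In SuDHL10 with both drugs BATF rose by 1.94 ± 0.246 (adjusted p = 0.00162), where 1 partner factor rose and 2 fell (21.6% of all genes passed).

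Among genes of interferon gamma and IRF1, WARS1, a tryptophan tRNA synthetase, changed by 1.27 ± 0.0295 in DB (adjusted p = 2.02e-11) and by -1.37 ± 0.0387 in KARPAS422 (adjusted p = 7.05e-09), and of this list 3 of 7 rose and 1 fell in DB against 2 and 2 of 9 in KARPAS422. The IRF2-binding corepressor IRF2BP2 rose by 1.85 ± 0.0996 in DB (adjusted p = 1.09e-08), where 1 of 3 such genes rose and 1 fell. Of all genes, 69.2% passed in DB and 51.8% in KARPAS422.

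Over 16 condition means of log2 CPM, each centred on its table, and among 8521 genes, the gene most like IRF2 was UBE2E2 (Pearson's r = 0.971), that most like IRF3 C8orf82 (0.947), IRF4 PIP5K1C (0.966), IRF5 ARID5B (0.92), IRF7 TRIM62 (0.965) and IRF8 TBC1D4 (0.958). The conditions share lines and libraries, and IRF4 and IRF7 rest on few counts in the combination table, so these are descriptions across conditions. Nothing was computed for IRF1 and IRF9.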
